A study of Mus musculus with 2 samples.

Results

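The 55 genes described here encode proteins of the S phase, G2/M and mitosis machinery, and they were taken by name from a table of read counts for 24421 gene symbols, in which all 55 were found. Dividing cells first copy their DNA in S phase, then separate the chromosomes in mitosis and cleave in cytokinesis. Most of these genes are transcribed in waves, with E2F factors driving the S phase set and the MuvB, B-MYB and FOXM1 factors driving the later set, so their mRNA is scarce in resting cells and marks cycling ones. In skin, the hair matrix at the base of a growing follicle is among the fastest dividing tissues, and the basal epidermis, the outer root sheath and, after injury, several dermal cell types divide as well.

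Whole-layer back skin of wild type C57BL6/J mice stretched by a device for 5 days (Tension) is compared with non-stretched skin at day 5 (Control). The strain was 33% at the start, and per the methods it was raised each day. According to the methods the mice were 8-week-old females in telogen, the resting phase of the hair cycle, and mice with any focal anagen (growth phase) skin were left out. There was 1 library per condition. The methods give a number of biological replicates for the animal experiments in general, but not how many mice went into each sequenced library, so the differences below lack a replicate check and carry no p-value. Control skin gave 14152379 counts and stretched skin 11648655. Levels are given as CPM, the count scaled to the total of the library (counts per 1e6), or as FPKM, which also divides by exon length and is the scale on which genes are compared with each other. The ratio of CPM in stretched over control skin is given as log2 with an exact Clopper-Pearson interval at the 95% level. Such an interval reflects counting error alone and compares these libraries, not the conditions. In whole skin, fewer cycling cells and less of these mRNAs per cell cannot be told apart.

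Cell cycle and mitosis genes were lower in stretched skin nearly throughout. Together the 55 genes took 37718 counts in control skin, 0.267% of the library (exact interval 0.264% to 0.269%), and 18194 counts in stretched skin, 0.156% (0.154% to 0.158%). The ratio of these shares was 0.586 (0.576 to 0.597), a share 41.4% lower. The ratio was below 1 for 54 of the 55 genes, against 61.5% of the 16255 genes with more than 3 counts in at least 1 library. The interval lay wholly below 0 for 53 members, against 33.3% of all these genes, and wholly above 0 for 0 members, against 17.8%. With TMM factors 50 members had an interval below 0, against 23.9% of all genes, and Ccne1, Cdt1 and Tyms joined E2f1 and Pttg1 outside that count. The median log2 ratio of the members was -0.84, and that of all 16255 genes was -0.12. Of the 55 members, 36 had a ratio within the lowest 10% of all these genes.

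The size of the difference was moderate. By a CPM fold of at least 2 among genes with 20 or more counts over both libraries, 12 members were called lower and 0 higher, against 5.02% and 4.98% of the 14804 genes tested. Among the 10648 genes whose summed counts lay within the range of the members (173 to 3973), 3.51% were called lower. With a fold of 1.5, 43 members were lower, against 13.4% of the genes tested. By the rule of the methods, which asks for a product of the FPKM values (EV) above 10 and a fold of 2, applied here after 1 was added to each FPKM, 49 members were tested, 2 were called lower (Kif11 and Top2a) and 0 higher, against 2.43% and 2.61% of 10908 genes. The methods state no pseudocount, and without one 10 of 47 members tested were lower, against 2.85% of all genes. With the median of ratios 0 of 49 were lower, against 1.96%. The number past 2-fold turned on the scaling of the libraries. It was 5 members (Bub1, Kif11, Cdc25c, Top2a and Nusap1) with TMM factors or the median of ratios, where 4.19% and 4.14% of all genes were called lower, and 37 members were then past 1.5-fold with either, against 10.2% and 10.1% of all genes.

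**Figure D1:**
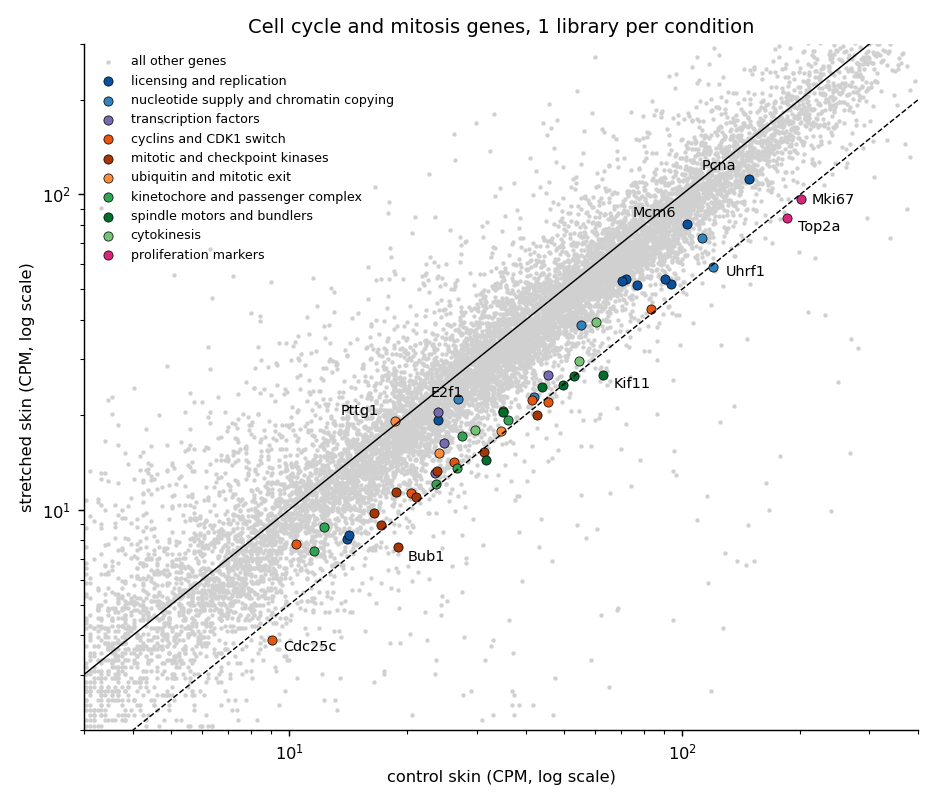
Level of each gene in control skin (x axis) and stretched skin (y axis), both in CPM on log scales. Coloured points are the 55 members by role and grey points all other genes. The solid line marks equal levels and the dashed line a ratio of 0.5. Of the members, 54 lie below the solid line and 12 on or below the dashed line.

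The classic proliferation markers were the most abundant members by count in control skin, and both were lower by over 2-fold in stretched skin when libraries were scaled by their totals. With TMM factors Top2a stayed past 2-fold and Mki67 did not (-0.95). Mki67, which encodes the Ki-67 antigen that coats mitotic chromosomes and is used in histology to mark cycling cells, spans 135689784 to 135716361 of chromosome 7 (mm10). Its 2847 counts in the control library and 1126 in the stretched one were 201 and 96.7 CPM, a log2 ratio of -1.06 (-1.16 to -0.96). Top2a encodes the topoisomerase that untangles sister chromatids and spans 98992943 to 99024189 of chromosome 11. It went from 2624 counts to 978, a log2 ratio of -1.14 (-1.25 to -1.04). Together these 2 genes held 5471 of the members' control counts, and without them the ratio of the summed shares was 0.606.

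Genes that license and carry out DNA replication were all lower, against 61.5% of all genes with a ratio below 1, but by less than the markers. The 10 genes had a median log2 ratio of -0.50, and their summed share was 30.4% lower in stretched skin. Mcm2, Mcm3, Mcm4, Mcm5, Mcm6 and Mcm7 encode the subunits of the replicative helicase, a ring with each subunit present once, and their 6 values did not move as a block. Mcm5 went from 1329 counts to 606 (-0.85, interval -0.99 to -0.71) and Mcm7 from 1284 to 627 (-0.75, interval -0.89 to -0.61), whereas Mcm6 went from 1457 to 936 (-0.36, interval -0.48 to -0.24). The intervals of Mcm5 and Mcm6 do not overlap. Between them lay Mcm2 (1089 and 602 counts, -0.57), Mcm4 (1021 and 626, -0.42) and Mcm3 (995 and 620, -0.40). Other genes hold 12.9% of the 76-base stretches of Mcm7, so part of its count is uncertain.

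Per length, Pcna had the highest level of the 55 genes in both libraries, 61.6 FPKM in control skin and 46.5 in stretched skin. It encodes the sliding clamp of the DNA polymerases and is also used in repair, and its 2091 and 1299 counts gave a log2 ratio of -0.41 (-0.51 to -0.31). Other genes hold 13.6% of the 76-base stretches of Pcna. The helicase loaders Cdc6 (198 and 94 counts, -0.79) and Cdt1 (338 and 224, -0.31) and the CDT1 inhibitor Gmnn (201 and 97, -0.77) were lower too. Their intervals were wide, and that of Cdt1 reached from -0.56 to -0.06.

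Genes for nucleotide supply differed from one another. Tk1, the salvage thymidine kinase, went from 594 counts to 266 (-0.88, interval -1.09 to -0.67). Tyms, which makes thymidylate de novo, went from 381 to 261 (-0.26, interval -0.50 to -0.03), so its interval did not overlap that of Tk1. The ribonucleotide reductase subunits lay between, with Rrm1 at 1592 and 847 counts (-0.63) and Rrm2 at 781 and 450 (-0.51). Uhrf1, which recruits the maintenance DNA methyltransferase to newly copied DNA, had the lowest ratio of the S phase genes, with 1695 and 688 counts (-1.02, interval -1.15 to -0.89).

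Among the transcription factors, those of the late wave were lower by more than E2f1. Foxm1, the forkhead factor of G2/M genes, had 646 counts in the control library and 312 in the stretched one (-0.77, interval -0.97 to -0.57). Mybl2, which encodes B-MYB, had 333 and 152 (-0.85, interval -1.14 to -0.57) and shares 17.1% of its stretches with other genes. The repressor E2f8 had 350 and 190 counts (-0.60). E2f1, which activates S phase genes, had 338 and 238 counts, and its interval included 0 (-0.23, interval -0.47 to 0.02). With totals without hair and muscle genes it lay below 0.

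The cyclins and the CDK1 switch, which drive entry into S phase or mitosis, had a median log2 ratio of -0.89 over 7 genes. Ccna2 (cyclin A2) went from 1181 counts to 504 (-0.95, interval -1.10 to -0.80), Ccnb1 (cyclin B1) from 645 to 256 (-1.05) and Ccnb2 from 371 to 165 (-0.89). Their partner kinase Cdk1 had 586 and 260 counts (-0.89, interval -1.11 to -0.68). Cdc25c, the phosphatase that activates CDK1, had the fewest counts of the members, 128 and 45, and a ratio of -1.23 with a wide interval (-1.75 to -0.73). Of the G1/S cyclins, Ccne2 was at -0.85 (289 and 132 counts) and Ccne1 was at -0.41 (147 and 91 counts), but their intervals overlapped. Reads are partly shared with other genes for Ccnb1 (18.7% of stretches), Ccne2 (12.8%), Ccna2 (10.7%) and Cdc25c (10.7%).

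Mitotic and checkpoint kinases were lower in all 8 cases, against 61.5% of all genes with a ratio below 1, and had a median log2 ratio of -0.94. Bub1, a kinase of the spindle checkpoint at the kinetochore, had the lowest ratio of the 55 genes. It spans 127801122 to 127831865 of chromosome 2, and its counts were 268 in the control library and 89 in the stretched one, 2.48-fold lower (-1.31, interval -1.67 to -0.96). Its relative Bub1b, which encodes BUBR1 of the same checkpoint, went from 605 counts to 232 (-1.10), and Aurkb, the catalytic subunit of the chromosomal passenger complex, from 442 to 178 (-1.03). Plk1, which acts at centrosomes, kinetochores and the midbody, had 337 and 155 counts (-0.84). Melk (242 and 104 counts), Nek2 (297 and 128), Aurka (233 and 114) and Ttk (265 and 133) ranged from -0.94 to -0.71.

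Kinetochore and passenger complex genes followed at a median of -0.80. Birc5, which encodes survivin, went from 378 counts to 158 (-0.98), the motor gene Cenpe from 335 to 141 (-0.97) and Cenpf from 511 to 224 (-0.91). Cdca8, the borealin gene, had 389 and 199 counts (-0.69). The microtubule-binding NDC80 complex genes were the least different of this group, with Ndc80 at 164 and 86 counts (-0.65) and Nuf2 at 174 and 103 (-0.48, interval -0.84 to -0.12).

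Genes of the spindle were the group with the largest difference after the markers, with a summed share 50.3% lower in stretched skin. Kif11 encodes the motor that pushes the spindle poles apart and spans 37376403 to 37421859 of chromosome 19. It had 889 counts in the control library and 311 in the stretched one (-1.23, interval -1.43 to -1.05). Besides Top2a it was the only member whose interval lay wholly past 2-fold, a rule whose share of all genes was not computed. Nusap1 (448 and 167 counts, -1.14), Kif20a (752 and 309, interval -1.20 to -0.81) and Tpx2 (703 and 289, interval -1.20 to -0.80) also passed 2-fold, Tpx2 by the smallest margin of the 12. Birc5 was the first gene outside it. Prc1, which bundles the midzone microtubules, had 623 and 286 counts (-0.84), and its partner Kif23 had 495 and 237 (-0.78). Of the exon bases of Kif20a, 29.3% lie under exons of other genes. The strand setting of the counts is not given, so reads of overlapping genes may be mixed.

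The 3 cytokinesis genes had a median log2 ratio of -0.73, beside -0.12 for all genes. Racgap1, the GTPase-activating subunit of centralspindlin, had 774 and 346 counts (-0.88), the RhoA activator Ect2 had 420 and 209 (-0.73), and Anln, the contractile ring scaffold anillin, had 855 and 459 (-0.62, interval -0.78 to -0.45). Among the genes of protein degradation at mitotic exit, Cdca3 (489 and 207 counts, -0.96), the anaphase-promoting complex activator Cdc20 (495 and 239, -0.77) and its E2 enzyme Ube2c (341 and 176, -0.67) were lower. Exons of other genes cover 22.8% of the exon bases of Ube2c. Pttg1, the securin that holds separase inactive until anaphase, was the exception among the 55. It had 263 counts in the control library and 223 in the stretched one, or 18.6 and 19.1 CPM, a log2 ratio of 0.04 with an interval that included 0 (-0.22 to 0.31).

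**Figure D2:**
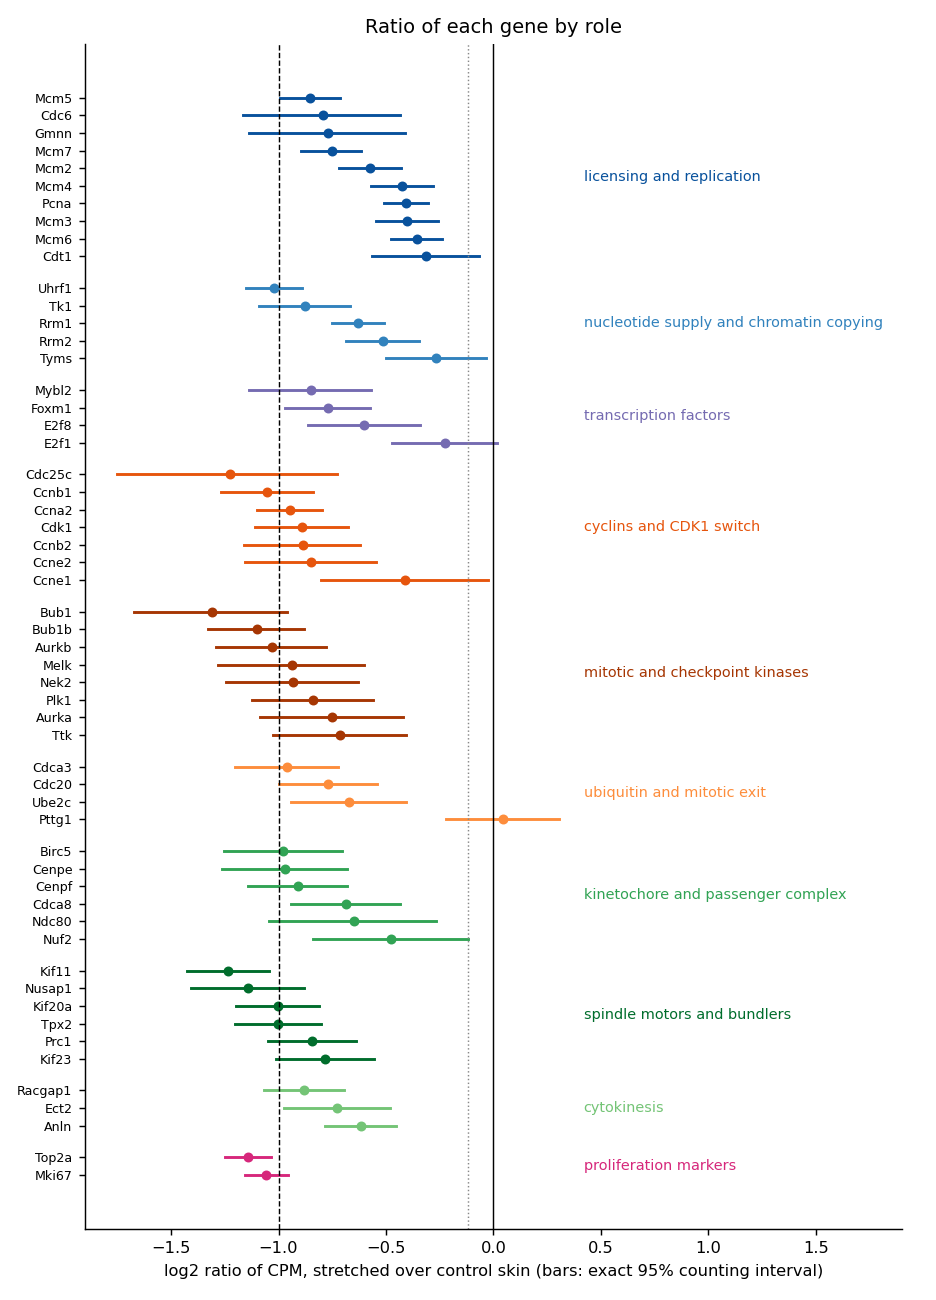
Log2 ratio of CPM in stretched over control skin for each of the 55 genes, grouped by role (points), with the exact 95% counting interval (bars). The solid line marks equal levels, the dashed line a 2-fold lower level and the dotted line the median of all genes (-0.12). The bars of E2f1 and Pttg1 cross the solid line.

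Mitosis genes differed more than S phase genes. The 15 genes of replication, nucleotide supply and chromatin copying (the S phase genes) had a median log2 ratio of -0.57 and a summed share 33.4% lower. The 27 kinase, kinetochore, spindle, mitotic exit and cytokinesis genes (the mitosis genes) had a median of -0.88 and a summed share 45.1% lower. A ratio of the 2 sets within each library does not depend on how the libraries are scaled. There were 0.810 mitosis counts for each S phase count in the control library and 0.667 in the stretched one, a log2 difference of -0.28 (interval from Poisson error on the log scale, -0.34 to -0.22). The 2 sets were not uniform, since Uhrf1 was lower than most mitosis genes and Pttg1 lay above every S phase gene.

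Longer lists of other genes of the same machinery showed the same order. All 37 other replication genes had a ratio below 1, with a median of -0.60, and 33 of their intervals lay wholly below 0, against 61.5% and 33.3% of all genes. With TMM factors 28 of these intervals lay below 0, against 23.9% of all genes. Low ratios were those of Pola1, the catalytic subunit of the primase-associated polymerase (407 and 171 counts, -0.97), and Mcm10 (241 and 104, -0.93). The highest were those of Tipin (317 and 224, -0.22), Prim2 (209 and 148, -0.22) and Gins4 (248 and 189, -0.11), whose intervals included 0. Of the 48 other mitosis genes, 47 had a ratio below 1, the median was -0.85, and 46 intervals lay wholly below 0, or 44 with TMM factors, against the same shares of all genes. The lowest were the kinetochore gene Spc25 (266 and 88 counts, -1.31), Troap (133 and 45, -1.28) and Sapcd2 (122 and 45, -1.16). The highest were Pkmyt1 (420 and 295, -0.23), Bub3 (1024 and 737, -0.19) and Wee1 (588 and 521, 0.11, interval -0.07 to 0.28). With TMM factors the intervals of Pkmyt1 and Bub3 included 0 and that of Wee1 lay above 0. Pkmyt1 and Wee1 both encode kinases that hold CDK1 inactive. Within the libraries the ratio of other mitosis to other replication counts was 1.48 in the control library and 1.33 in the stretched one, a log2 difference of -0.16 (-0.21 to -0.10).

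**Figure D3:**
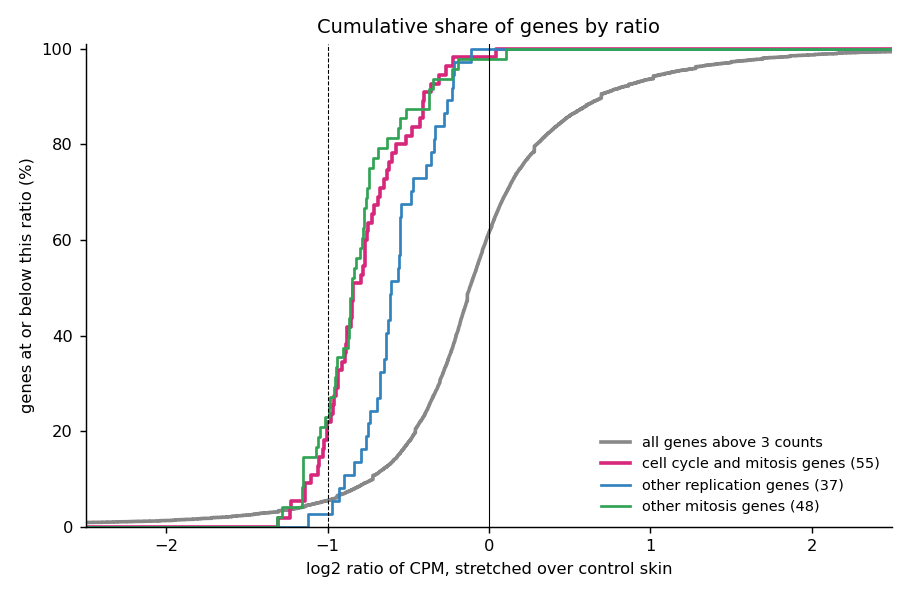
Cumulative percentage of genes (y axis) at or below a given log2 ratio of CPM, stretched over control skin (x axis). Lines show the 55 members, 37 other replication genes, 48 other mitosis genes and all 16255 genes above 3 counts, with the dashed line at a 2-fold lower level. The line of the members lies to the left of that of all genes except at its lowest end, and the other replication genes lie to the right of the other mitosis genes over most of the range.

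The upstream regulators went in several directions. Among the G1 cyclins and kinases, Ccnd1 (3622 and 1647 counts, -0.86, interval -0.94 to -0.77) and Ccnd2 (5378 and 2492, -0.83) were lower, whereas Ccnd3 was higher (1139 and 1265, 0.43, interval 0.32 to 0.55). Their kinases were lower by less for Cdk4 (2472 and 1588, -0.36) and on few counts for Cdk6 (53 and 22, -0.99). Cdk2 (-0.26), Cdk7 (-0.17) and Ccnh (-0.40) were lower with intervals below 0, although those of Cdk2 and Cdk7 included 0 with TMM factors. Ccnd1 shares 20.6% and Cdk4 15.7% of their stretches with other genes.

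Of the 6 CDK inhibitor genes above the floor, 3 had intervals wholly below 0, against 33.3% of all genes, and 0 wholly above 0, against 17.8%. With TMM factors the interval of Cdkn1a lay above 0 and that of Cdkn2b included 0, which left 2 below and 1 above. Cdkn1a, which encodes p21, had 3352 counts in the control library and 2877 in the stretched one (0.06, interval -0.01 to 0.13), Cdkn1c (p57) had 732 and 611 (0.02) and Cdkn2d had 254 and 232 (0.15), all with intervals that included 0. Cdkn1b, the p27 gene, had 1028 and 619 (-0.45, interval -0.60 to -0.31), Cdkn2b had 129 and 76 (-0.48) and Cdkn2c had 702 and 326 (-0.83, interval -1.02 to -0.63). Cdkn2a had 2 counts in each library, which is under the floor of 3 counts, and has no ratio.

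In the RB and E2F family the activators E2f2 (821 and 363 counts, -0.90) and E2f3 (551 and 279, -0.70) and the pocket protein gene Rbl1 (538 and 277, -0.68) were lower by the most. Tfdp2 (-0.57), E2f7 (-0.48), Rbl2 (-0.31), E2f6 (-0.30) and Tfdp1 (-0.20) were lower with intervals below 0. The intervals of Rb1 (-0.09), E2f4 (0.05) and E2f5 (-0.21) included 0. With TMM factors those of E2f6 and Tfdp1 included 0 too, and that of E2f4 lay above 0. Of the 5 MuvB core genes, 2 had intervals below 0, a share near the 33.3% of all genes. Among 6 MYC family genes, Mycn (560 and 166 counts, -1.47) and Mycl (1220 and 441, -1.19) were past 2-fold, against 5.02% of all genes, and they are named here after their values were seen. Mxi1 was lower by less (-0.33, interval -0.47 to -0.19). The intervals of Myc (-0.05), Max (0.08) and Mxd1 (-0.16) included 0, although that of Max lay above 0 with TMM factors and that of Mxd1 below 0 with totals without hair and muscle genes. Of 10 p53 target genes, 5 intervals lay above 0, against 17.8% of all genes, and 3 lay below, against 33.3%. All 8 chromatin and tubulin genes that are often high in cycling cells had intervals below 0, against 33.3% of all genes, with a median of -0.44. With TMM factors it was 7 of 8, against 23.9%.

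The promoters of the members were searched for the motifs through which the S phase and mitosis sets are known to be controlled. The sequences are RefSeq windows of GRCm38.p6 from 250 bases before to 50 after a gene's start, and 46 of the 55 members had one, with 9 not analysed here. The motifs were the cell cycle genes homology region (CHR, written TTTGAA or TTCGAA), the CCAAT box (CCAAT) and the E2F site (TTTCCCGC, TTTGGCGC, TTTCGCGC or TTTGCCGC), each on either strand, and a gene counted if any of its windows held the motif. An E2F site was found in 7 of 13 S phase members and 0 of 24 mitosis members, and in 2.60% of all 27025 genes with a window. A CHR was found in 17 of 24 mitosis members and 2 of 13 S phase members, and in 21.7% of all genes. Both a CHR and a CCAAT box were present in 22 of the 46 members and in 8.61% of all genes. Among the genes outside the members, an E2F site was present in 32.1% of 28 other replication genes and 13.9% of 36 other mitosis genes, and a CHR in 25% and 69.4%. The members with a CHR had a median log2 ratio of -0.81 and those without of -0.71, and the members with an E2F site had -0.77 and those without -0.81.

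The 250 bases before the start are printed for the members with the most counts in each class, to show how the motifs are laid out. Mki67 and Top2a carry CHR and CCAAT motifs, and Mcm6 and Uhrf1 carry E2F sites. Capitals mark every motif listed above, on the strand of the gene or as its reverse complement, and the positions are chr7:135716380-135716629 (minus strand), chr11:99024190-99024439 (minus), chr1:128359706-128359955 (minus) and chr17:56304063-56304312 (plus), in this order.
Mki67: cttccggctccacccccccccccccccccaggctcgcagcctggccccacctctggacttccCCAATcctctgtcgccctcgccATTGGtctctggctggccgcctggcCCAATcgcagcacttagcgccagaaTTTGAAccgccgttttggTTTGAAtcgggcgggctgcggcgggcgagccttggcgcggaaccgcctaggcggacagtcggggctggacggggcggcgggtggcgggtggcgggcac
Top2a: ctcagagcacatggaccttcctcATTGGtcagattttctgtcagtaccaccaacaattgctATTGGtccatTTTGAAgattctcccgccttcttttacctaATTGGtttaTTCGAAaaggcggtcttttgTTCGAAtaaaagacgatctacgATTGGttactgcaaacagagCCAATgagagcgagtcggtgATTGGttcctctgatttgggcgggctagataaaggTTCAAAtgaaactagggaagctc
Mcm6: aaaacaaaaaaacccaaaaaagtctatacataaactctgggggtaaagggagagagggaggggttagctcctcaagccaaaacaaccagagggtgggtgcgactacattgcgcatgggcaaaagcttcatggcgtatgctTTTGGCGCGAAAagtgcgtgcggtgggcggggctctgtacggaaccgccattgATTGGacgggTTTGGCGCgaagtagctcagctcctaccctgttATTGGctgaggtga
Uhrf1: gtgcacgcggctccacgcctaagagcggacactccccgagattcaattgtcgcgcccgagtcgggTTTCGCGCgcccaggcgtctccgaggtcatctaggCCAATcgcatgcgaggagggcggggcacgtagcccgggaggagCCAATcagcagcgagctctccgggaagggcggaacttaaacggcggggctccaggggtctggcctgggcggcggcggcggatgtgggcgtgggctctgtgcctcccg
In Mki67 2 CHR copies lie 116 and 98 bases before the start. The Top2a window has CHR matches that begin 179, 140, 120 and 23 bases before the start, among 6 CCAAT boxes. In Mcm6 the copies of TTTGGCGC begin at 110 and 47 bases before the start, and the first overlaps a TTTCGCGC on the other strand. A match of letters describes the sequence only.

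**Figure D4:**
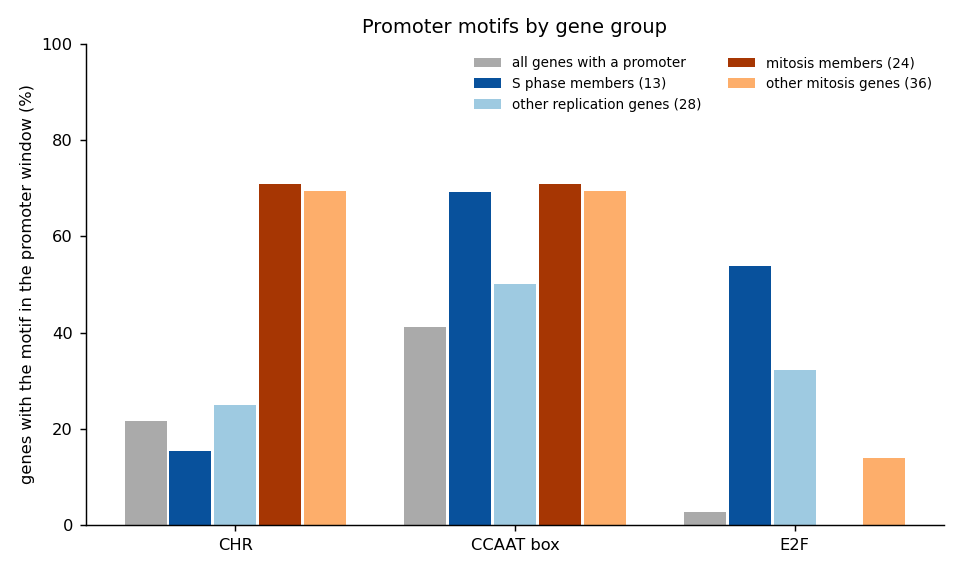
Percentage of genes with a motif in the promoter window (y axis) for the CHR, the CCAAT box and the E2F site, in all genes with a window, S phase members, other replication genes, mitosis members and other mitosis genes (bars, with the number of genes in the legend). The CHR bars are highest for both mitosis sets and the E2F bars for both replication sets, and the mitosis members have no E2F bar.

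Markers of several cell types moved in the same libraries, and their part in the values above was not tested. The skin label was borne out by epidermal markers, with Krt5 at 61216 and 50601 counts and Krt14 at 38376 and 38380. All 18 hair matrix and shaft genes were lower in stretched skin, against 61.5% of all genes with a ratio below 1. Their log2 ratios ran from -4.47 to -1.27, with a median of -2.57. Their summed share, to which the keratin genes named next add most, was 0.996% in control skin and 0.172% in stretched skin. Their most abundant genes, the inner root sheath keratin genes Krt71 (60382 and 8796 counts), Krt25 (29044 and 5035) and Krt27 (21073 and 2629) and the shaft keratin gene Krt35 (6503 and 977), are used by growing follicles, and all 4 were above the floor in both libraries. All 6 melanocyte genes (median -1.38), with Dct at 2087 and 837 counts, and all 6 adipocyte genes (median -0.78) had intervals below 0, against 33.3% of all genes.

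The 8 bulge and outer root sheath genes had a median of -0.53, with Krt15 at 15280 and 9127 counts. Of their intervals, 6 lay below 0, against 33.3% of all genes, and 2 lay above, against 17.8%. Basal keratinocyte genes were near level as a set, with a median of -0.06 and a summed ratio of 1.07, but single genes ran from -0.49 to 0.33. Of their 8 intervals, 3 lay below 0, against 33.3% of all genes, and 3 above, against 17.8%. For each basal keratinocyte count there were 0.296 counts of the 55 cell cycle genes in control skin and 0.162 in stretched skin. All 8 macrophage and monocyte genes (median 1.30) and all 8 fibroblast genes (median 0.30) had intervals above 0, against 17.8% of all genes. The ratio of cell cycle to hair matrix and shaft counts went the other way, from 0.268 to 0.909, since the hair genes were lower by more than the cell cycle genes.

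**Figure D5:**
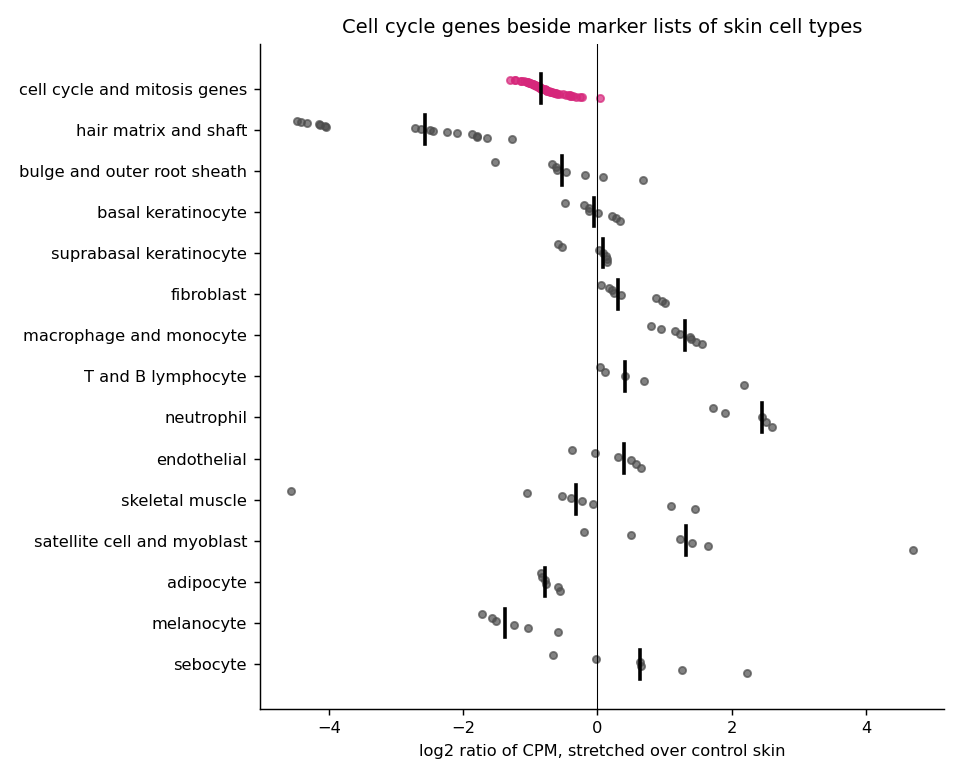
Log2 ratio of CPM, stretched over control skin (x axis), for each gene of the cell cycle and mitosis set and of 14 marker lists of skin cell types (points, genes above 3 counts), with the median of each list (vertical bar). The medians of the hair matrix and shaft list (-2.57) and the melanocyte list (-1.38) lie to the left of that of the cell cycle genes (-0.84), and all macrophage and neutrophil genes lie to the right of 0.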

How the data were processed

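RNA from whole-layer skin was sequenced as single-end reads of 76 bases, which were quality filtered and aligned to mm10 with TopHat2 per the methods. The authors deposited counts of reads per gene symbol, without normalization, and the counting program, its annotation and its strand setting are not given in the sources used here. Of 24421 symbols, 23376 matched GENCODE M21 by name and 670 by synonym, which gave exon union lengths and coordinates. CPM used the total count of each library. Counts below the floor of 3 were raised to it, which no member needed. Scaling alternatives came from edgeR 4.0.16 and DESeq2 1.42.0, used for factors only, since 1 library per group allows no test. The intervals were computed with scipy 1.17.1 in Python 3.11.15. The code for the ratios, intervals and calls was run on simulated counts with Poisson error. That run checks the code and does not address the spread between mice. Stretches of 76 bases were compared between the transcripts of all genes.

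The members, the lists and the alternatives were chosen with earlier results of these data known. All 55 members are named, with every gene of the G1, CDK inhibitor and RB/E2F lists, the 3 lowest and 3 highest ratios of the longer replication and mitosis lists at 20 or more counts, and at most 4 markers a list by counts. A result that this rule would name is not reported here. Of the listed marker genes, 3 were not analysed here. FPKM here was computed from the counts and exon lengths, whereas the methods took theirs from Cufflinks. The table held 0 sample columns beyond these 2.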

Additional observations from a re-analysis of the deposited data

How the results depend on the processing

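No paired analysis was possible because each condition has a single library, which also prevents leaving a library out. The direction of the members' difference held under all scalings tried, with the median log2 ratio between -0.86 and -0.73, and filters, pseudocounts and leaving out genes with shared or overlapped sequence gave -0.84 to -0.78. After a correction for GC content and length it was -0.69, beside -0.72 relative to all genes without it. The ratio of summed shares was 0.629 with TMM, 0.633 with the median of ratios, 0.629 with the upper quartile, 0.613 once the top 50 genes were removed from the totals and 0.576 once hair and muscle genes were. The number of members lower by 2-fold was 5 with TMM, 5 with the median of ratios, 6 with the upper quartile, 6 without the top 50 genes and 13 without hair and muscle genes, against 4.19%, 4.14%, 4.21%, 4.53% and 5.28% of all genes. It was 43 with a fold of 1.5, against 13.4%, and 2 where the interval had to lie wholly past 2-fold. The share of all genes under that last rule was not computed. Each scaling adds one shift to every log2 ratio, 0.10 with TMM and 0.11 with the median of ratios. By the rule of the methods, 10 members were lower with a pseudocount of 0, 8 with 0.1, 9 with CPM in place of FPKM, 1 with EV above 100 and 0 with the median of ratios, against 2. The shares of all genes lower under these settings were 2.85%, 2.81%, 3.27%, 2.41% and 1.96%. Members with an interval below 0 numbered 50 with TMM, the median of ratios or the upper quartile, 51 without the top 50 genes and 54 without hair and muscle genes, where 23.9%, 23.3%, 24%, 27.2% and 35.7% of all genes did, in the order of the 5 scalings. A pseudocount of 1 pulls the ratio of genes at a few FPKM toward 0. These alternatives called 0 members higher. Chosen after seeing the data, leaving out Mki67 and Top2a gave a ratio of 0.606, and leaving out Uhrf1 and Pttg1, picked because they went against the pattern, a mitosis to S phase difference of -0.35, while the other sets gave -0.29 to -0.25. Depth limits Cdc25c most, with 173 counts over both libraries.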
